A study of Mus musculus with 51 samples.

Results

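Imprinted retrogenes and promoters that carry a germline methylation mark over a single gene were examined at 7 start sites, those of Mcts2 within H13, Nap1l5, the short Inpp5f transcript, Zrsr1 within Commd1, Peg13, Plagl1 and Impact. Members were all peaks of the 6 allelic tables (3 marks in 2 tissues), and all 1 kb windows, that lay within 10 kb of 1 of these start sites on GRCm38. This gave 28 of 150793 peaks, and the loci go by 8 gene names, with H13 standing for Mcts2 and Commd1 counted beside Zrsr1. Of the 28 peaks, 15 carried H3K4me3 (8 in ExE and 7 in epiblast), 2 carried H3K27me3 (1 in each tissue) and 11 carried H3K36me3 (6 and 5).

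Epiblast and extra-embryonic ectoderm (ExE) were dissected from mouse embryos at embryonic day 6.5, and native chromatin was immunoprecipitated for each mark. B6/CAST embryos had a C57BL6/Babr mother and a CAST/EiJ father, and CAST/B6 embryos the reverse. The matDKO/CAST embryos had a CAST father and a mother of B6/129 background, floxed at Dnmt3a and Dnmt3b, in which an oocyte-specific Zp3-cre removed both genes, so that maternal DNA methylation was not laid down in the egg. Each of the 18 groups had 2 libraries made from pooled tissue (nominally 4 epiblasts or 8 ExE), 36 libraries in all, with 15 inputs. Per the paper, a chromatin sample was split between the antibodies and the input, so libraries of different marks can come from the same pool. The B6/CAST and matDKO/CAST embryos thus shared the direction of the cross and the CAST father, but not the 129 part of the maternal genome or the transgene. In pooled tissue, fewer cells of a kind and less signal per cell cannot be told apart.

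An imprinted gene is transcribed mainly from the chromosome of 1 parent. At the loci described here the egg methylates the region of the start site (a germline differentially methylated region, gDMR), the methylation is kept on the maternal chromosome after fertilisation, and the unmethylated paternal start site can carry H3K4me3, the mark of active promoters. H3K27me3 is the Polycomb mark of silent promoters, and H3K36me3 covers the bodies of transcribed genes. Mcts2, Nap1l5 and Zrsr1 are retrogenes, copies made from a processed mRNA that landed inside an intron of another gene, whereas Plagl1 and Impact are imprinted through their own promoter region.

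The promoters of 6 of the loci, from 250 bases before to 50 bases after a start, are printed because they show how far the loci share a sequence feature that the choice of members did not use. The start is that of RefSeq for Mcts2, Nap1l5, Zrsr1 and Plagl1 and that of GENCODE for Inpp5f and Peg13. They are RefSeq sequence of GRCm38, written 5' to 3' on the strand of the gene, and the capitals mark the hexanucleotide TGCCGC or its reverse complement. When methylated, it is bound by ZFP57, a zinc finger protein that keeps imprints after fertilisation.
Mcts2 (chr2:152686898-152687197, plus strand): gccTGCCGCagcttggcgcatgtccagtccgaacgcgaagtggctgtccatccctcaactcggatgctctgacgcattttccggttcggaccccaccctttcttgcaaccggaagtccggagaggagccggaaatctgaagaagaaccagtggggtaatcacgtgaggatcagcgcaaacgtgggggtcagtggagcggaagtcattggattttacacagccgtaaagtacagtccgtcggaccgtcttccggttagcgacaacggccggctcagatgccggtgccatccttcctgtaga
Nap1l5 (chr6:58907077-58907376, minus strand): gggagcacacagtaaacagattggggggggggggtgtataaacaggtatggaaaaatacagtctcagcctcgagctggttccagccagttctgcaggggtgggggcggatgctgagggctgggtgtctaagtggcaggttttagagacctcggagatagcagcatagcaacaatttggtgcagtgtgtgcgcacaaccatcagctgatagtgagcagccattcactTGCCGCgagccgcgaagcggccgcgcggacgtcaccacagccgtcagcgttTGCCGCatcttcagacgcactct
Inpp5f (chr7:128688239-128688538, plus strand): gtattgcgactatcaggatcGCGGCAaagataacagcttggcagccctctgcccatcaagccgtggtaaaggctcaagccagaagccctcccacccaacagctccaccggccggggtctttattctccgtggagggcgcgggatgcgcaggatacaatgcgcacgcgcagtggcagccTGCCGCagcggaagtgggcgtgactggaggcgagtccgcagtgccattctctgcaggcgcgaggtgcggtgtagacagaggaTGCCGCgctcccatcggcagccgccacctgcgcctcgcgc
Plagl1 (chr10:13090582-13090881, plus strand): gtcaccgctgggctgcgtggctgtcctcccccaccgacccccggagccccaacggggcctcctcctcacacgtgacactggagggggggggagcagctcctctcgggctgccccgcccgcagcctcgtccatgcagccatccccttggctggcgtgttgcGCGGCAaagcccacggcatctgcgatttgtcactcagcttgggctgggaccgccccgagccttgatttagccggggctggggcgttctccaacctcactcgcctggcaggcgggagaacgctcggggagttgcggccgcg
Zrsr1 (chr11:22971755-22972054, plus strand): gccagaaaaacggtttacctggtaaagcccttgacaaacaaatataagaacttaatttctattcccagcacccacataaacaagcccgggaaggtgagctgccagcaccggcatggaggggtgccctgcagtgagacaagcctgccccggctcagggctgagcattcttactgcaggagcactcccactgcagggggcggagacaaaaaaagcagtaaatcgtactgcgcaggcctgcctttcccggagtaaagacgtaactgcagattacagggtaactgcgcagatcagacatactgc
Peg13 (chr15:72810275-72810574, minus strand): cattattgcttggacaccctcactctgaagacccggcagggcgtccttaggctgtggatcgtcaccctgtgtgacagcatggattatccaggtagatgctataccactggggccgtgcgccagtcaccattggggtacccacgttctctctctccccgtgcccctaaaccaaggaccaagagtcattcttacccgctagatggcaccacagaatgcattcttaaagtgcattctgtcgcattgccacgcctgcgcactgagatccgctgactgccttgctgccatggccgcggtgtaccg

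The hexanucleotide, counted on both strands, stood once in the Mcts2 and Plagl1 promoters, 2 times in that of Nap1l5 and 3 times in that of Inpp5f. It was not in the 300 bases at Zrsr1, Peg13 or Impact. Of 31396 autosomal promoters of the same length, 11.6% held at least 1 match and 1.53% at least 2, against 4 and 2 of the 7 start sites. Within 1 kb on either side of the start, 5 of 7 loci held it (Peg13 as well, with 6 matches), against 43.5% of 20807 protein-coding gene starts. The 300 bases held 25 CpG at Mcts2, 17 at Nap1l5, 28 at Inpp5f, 10 at Zrsr1, 15 at Peg13, 26 at Plagl1 and 3 at Impact, where the median of all promoters was 7. Over 2 kb the 7 loci held 30 (Impact) to 105 (Plagl1) CpG with a median of 88, and gene starts had a median of 64. Such matches are a description of the letters and not of a bound factor.

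The start sites and their surroundings were read from GENCODE vM21. Mcts2, a copy of the translation factor gene Mcts1, starts at position 152687035 of chromosome 2 (plus strand) in an intron of H13, which encodes signal peptide peptidase. Nap1l5, a nucleosome assembly protein gene, starts at position 58907076 of chromosome 6 (minus strand) in an intron of Herc3. The short transcript of Inpp5f, a phosphoinositide phosphatase gene, starts at position 128688489 of chromosome 7 (plus strand), downstream of the main promoter of the same gene. Zrsr1, related to the splicing factor U2af1, starts at position 22972005 of chromosome 11 (plus strand) in an intron of Commd1, a gene of copper homeostasis that runs on the other strand. Peg13, a long non-coding RNA, starts at position 72810324 of chromosome 15 (minus strand) in an intron of Trappc9. Plagl1, a zinc finger transcription factor gene also known as Zac1, was taken at its start at position 13090691 of chromosome 10 (plus strand). The RefSeq starts behind the printed promoters lie 113 bases downstream of these positions at Mcts2, 141 bases downstream at Plagl1 and 50 bases upstream at Nap1l5. Impact, a regulator of the response to amino acid starvation, starts at position 12971923 of chromosome 18 (plus strand).

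Reads assigned to a parent numbered 2.70 to 6.82 M per H3K4me3 library in ExE and 1.12 to 6.06 M in epiblast, 0.271 to 6.58 M for H3K27me3 and 0.289 to 2.11 M for H3K36me3, and 44.2 to 51.2% of the autosomal reads of a library were paternal. Dissection was checked by total H3K4me3 at marker promoters. Of 7 epiblast markers, 5 were higher in every epiblast library. Of 7 ExE markers, 2 (Cdx2 and Bmp4) were higher in every ExE library, 4 overlapped and Esrrb was higher in epiblast, so at the level of promoters the ExE markers separated the tissues only in part. Of 7 visceral endoderm markers, 2 were higher in every ExE library, 1 in every epiblast library and 4 overlapped, and their part in the results was not tested. The 5 markers of maternal blood and decidua overlapped between the tissues.

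H3K4me3 lay on the paternal chromosome at every one of the 7 start sites in the wild type, and on both chromosomes in matDKO/CAST. Peg13, Plagl1, Impact, Inpp5f and Nap1l5 were nearly all paternal, with group means of 88.7 to 99.3% of allelic reads in the 2 wild-type crosses and both tissues. Mcts2 and Zrsr1 were paternal to a lesser degree, with group means of 71.3 to 88.3% and 63.2 to 69.2%. In matDKO/CAST the group means ran from 32.1 to 56.9%. In both tissues all 4 wild-type libraries were more paternal than both matDKO/CAST libraries at 7 of 7 start sites. This was so for 13.4% of informative peaks with reads in every library in ExE and 13% in epiblast. The Nap1l5 peak in ExE had too few reads to be among these informative peaks.

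At Peg13, 428 and 263 paternal against 9 and 5 maternal reads were counted in the B6/CAST ExE libraries, 265 and 204 against 5 and 3 in CAST/B6, and 188 and 164 against 206 and 167 in matDKO/CAST. In that order the paternal share was 98.0% ± 0.14, 98.3% ± 0.28 and 48.6% ± 1.29 (SD, n = 2 each). In epiblast it was 53.9% ± 0.76 in matDKO/CAST, against 99.3% ± 0.01 in B6/CAST and 98.5% ± 2.08 in CAST/B6. The 2 wild-type crosses lay together and matDKO/CAST apart from them in both tissues.

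At Impact, 227 and 141 paternal against 11 and 7 maternal reads were found in B6/CAST ExE, 156 and 171 against 6 and 5 in CAST/B6, and 31 and 17 against 38 and 18 in matDKO/CAST. These are paternal shares of 95.3% ± 0.08, 96.7% ± 0.61 and 46.7% ± 2.58 in ExE, and 97.7% ± 1.04, 96.2% ± 4.85 and 49.8% ± 5.78 in epiblast. Plagl1 showed the same division, with 76 and 45 against 2 and 4 reads in B6/CAST ExE, 49 and 47 against 0 and 1 in CAST/B6, and 37 and 25 against 48 and 41 in matDKO/CAST. Its paternal share in epiblast was 50.2% ± 2.14 in matDKO/CAST, against 98.0% ± 1.26 in B6/CAST and 96.4% ± 5.05 in CAST/B6.

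The short Inpp5f start held 104 and 87 paternal against 3 and 7 maternal reads in B6/CAST ExE, 55 and 51 against 10 and 4 in CAST/B6, and 12 and 5 against 15 and 14 in matDKO/CAST. In epiblast its paternal share was 97.3% ± 1.96, 98.0% ± 1.70 and 56.9% ± 7.98 in the same order. Nap1l5 had few reads. Its ExE peak held 7 and 10 against 0 and 2 reads in B6/CAST, 11 and 4 against 1 and 0 in CAST/B6, and 7 and 1 against 7 and 6 in matDKO/CAST, which is too few for a test. In epiblast Nap1l5 held 15 and 23 against 1 and 1 in B6/CAST, 15 and 2 against 1 and 0 in CAST/B6, and 22 and 6 against 25 and 5 in matDKO/CAST.

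Mcts2 and Zrsr1 kept a maternal signal in the wild type, and their peaks were the longest of the 7. The Mcts2 peak was 25.5 kb long in ExE and 12 kb in epiblast and held further transcript starts of H13 and of Gm26841. Both lengths are those of the CAST/B6 call, and in B6/CAST the peak was called over 9500 bp in ExE and 3500 bp in epiblast. Its ExE reads were 291 and 192 paternal against 117 and 77 maternal in B6/CAST, 163 and 153 against 73 and 38 in CAST/B6, and 124 and 74 against 199 and 119 in matDKO/CAST. Paternal shares were 71.3% ± 0.04, 74.6% ± 7.80 and 38.4% ± 0.03 in ExE, and 87.6% ± 4.84, 88.3% ± 9.92 and 38.2% ± 0.33 in epiblast. In matDKO/CAST the Mcts2 peak was thus the only one of the 7 below 40% in both tissues.

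The Zrsr1 peak was 14 kb long in ExE and 12.5 kb in epiblast and also held the start of Commd1, 10.4 kb from that of Zrsr1. These lengths are those of the B6/CAST call in ExE and the CAST/B6 call in epiblast. In the other cross the peak was called over 5500 bp in ExE and 6500 bp in epiblast and ended before the start of Commd1. In ExE 782 and 573 paternal against 390 and 298 maternal reads were counted in B6/CAST, 592 and 539 against 290 and 246 in CAST/B6, and 424 and 304 against 438 and 289 in matDKO/CAST. Paternal reads made up 66.3% ± 0.66, 67.9% ± 1.09 and 50.2% ± 1.47 in ExE, and 63.2% ± 5.10, 69.2% ± 3.79 and 52.9% ± 1.48 in epiblast. A second, 1.5 kb H3K4me3 peak upstream of Zrsr1 in ExE had too few reads for a test.

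**Figure D1:**
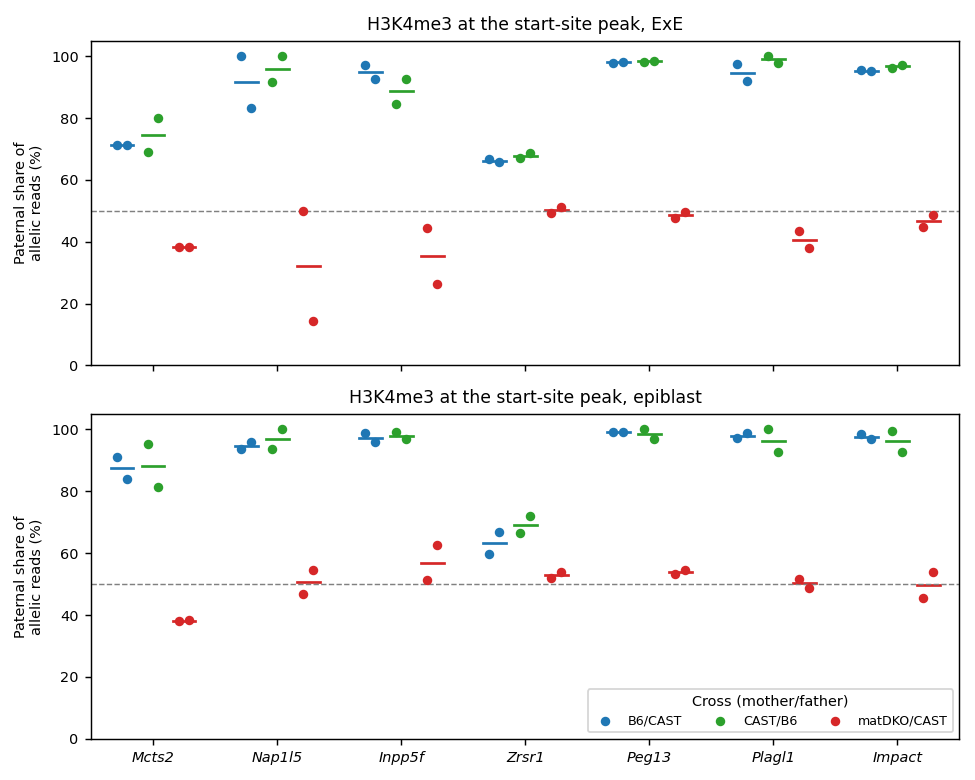
Paternal share of the H3K4me3 reads assigned to a parent (percent, vertical axis) at the peak of each of the 7 start sites, in ExE and in epiblast. Each point is 1 library, coloured by cross, and the dashed line marks equal shares. All wild-type points lie above the matDKO/CAST points of the same locus, and the wild-type points of Zrsr1 lie lowest, with group means of 63.2 to 69.2%.

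To ask whether these shares exceeded the spread between libraries, paternal and maternal reads were compared per cross with edgeR's quasi-likelihood test, adjusted over all informative peaks of the table (those with at least 20 reads in 1 allele of 1 wild-type library). Nap1l5 was not informative in ExE. All 6 informative ExE start-site peaks were paternal in both crosses, where 0.319% of all informative peaks were called, 0.19% with the paternal allele higher. Log2 ratios of paternal to maternal reads in B6/CAST and CAST/B6 were 5.64 and 5.78 at Peg13 (adjusted p = 4.34e-17 and 2.99e-15), 1.36 and 1.47 at Mcts2 (1.18e-08 and 4.34e-06) and 1.02 and 1.03 at Zrsr1 (1.63e-09 and 5.05e-10). At Impact they were 4.38 and 4.82, at Plagl1 4.31 and 6.23, and at Inpp5f 4.27 and 2.86, with adjusted p of at most 2.41e-06 in each cross.

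In epiblast 5 of 7 start-site peaks were paternal in both crosses, against 0.108% of informative peaks (0.0787% with the paternal allele higher), and 7 of 7 had a parent effect in the joint fit of both crosses, against 0.197%. In ExE the joint fit called 6 of 6, against 0.711%. The log2 ratios of B6/CAST and CAST/B6 were 7.19 and 7.24 at Peg13, 5.58 and 5.91 at Plagl1, 5.47 and 5.58 at Impact, 5.26 and 6.01 at Inpp5f and 2.86 and 3.45 at Mcts2, and the largest of their adjusted p was 0.00139. Nap1l5 (4.17 and 3.68, adjusted p = 0.0872 and 0.169) did not pass in a single cross and passed in the joint fit (3.94, adjusted p = 0.0289). With the library as a block, B6/CAST passed (adjusted p = 8.82e-06) and CAST/B6 did not (0.0597). In epiblast Nap1l5 was informative only through the paternal reads of a single B6/CAST library, the allele in which it is high. Its calls are therefore no separate support for a paternal bias.

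Zrsr1 in epiblast was called in CAST/B6 (1.08, adjusted p = 0.000324) but not in B6/CAST (0.81, adjusted p = 0.0675). Chromosome 11 of B6/CAST replicate 1 stood apart in the epiblast. Over the whole chromosome, 41.6% of the H3K4me3 reads of that library were paternal, a log2 ratio 0.40 below that of its autosomes, where chromosome 11 of the other libraries lay within -0.02 to 0.03. With library sizes taken from chromosome 11 alone, a setting chosen after seeing the data, the B6/CAST ratio of Zrsr1 was 1.04 (adjusted p = 0.00225), without that library 1.03 (adjusted p = 0.00244, with 1 library left in the group, assumed to vary like the other groups), and with the library as a block 0.82 (adjusted p = 1.57e-14).

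In matDKO/CAST 0 of 6 informative start-site peaks in ExE and 0 of 7 in epiblast were biased to a parent by edgeR, against 2.76% and 7.17% of informative peaks. At an unadjusted p under 0.05 there were 1 and 2, and DESeq2 called 0 and 0. The nearest to a call was Mcts2 in ExE, with more maternal than paternal reads (log2 ratio -0.57, adjusted p = 0.14), which passed when the library was a block (-0.57, adjusted p = 0.000881). The log2 ratios of the other 5 in ExE ran from -0.71 at Inpp5f to 0.12 at Zrsr1.

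Compared with B6/CAST, the bias in matDKO/CAST itself differed at 6 of 6 informative ExE peaks and at 5 of 7 epiblast peaks, each toward fewer paternal reads, where 0.892% and 0.674% of informative peaks differed, 0.81% and 0.615% in that direction. In ExE the difference in log2 ratio was -5.60 at Peg13 (adjusted p = 3.17e-09), -4.94 at Inpp5f (0.000235), -4.72 at Plagl1 (2.99e-05), -4.47 at Impact (2.56e-06), -1.93 at Mcts2 (1.46e-05) and -0.90 at Zrsr1 (0.00809). In epiblast it was -6.84 at Peg13, -5.47 at Impact, -5.39 at Plagl1, -4.75 at Inpp5f and -3.44 at Mcts2, with adjusted p of at most 0.000232. Nap1l5 (-4.05, adjusted p = 0.0881) and Zrsr1 (-0.53, adjusted p = 1) did not pass in epiblast. They passed with the library as a block (adjusted p = 0.00197 and 0.0235), and Zrsr1 passed with chromosome totals (-0.78, adjusted p = 0.0369).

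Whether a locus was more biased in 1 tissue was tested on the log2 ratio within each library by an exact permutation test of the 4 wild-type ExE against the 4 wild-type epiblast libraries, 2-sided and unadjusted, at 7 loci. The smallest p this design allows is 0.0286. Mcts2 reached it, with a log2 ratio of 1.44 ± 0.38 in ExE and 2.98 ± 0.98 in epiblast (SD, n = 4). The difference of -1.53 was no longer at that p (0.0571) when 1 rather than 0.5 was added to the counts, nor without any 1 of the 4 ExE libraries or without CAST/B6 replicate 2 of epiblast (0.0571 each). The 2 peaks differ in extent, each with the length called in CAST/B6. The outer part of the ExE peak, beyond the end of the epiblast peak, had a mean total H3K4me3 of 1.55 RPKM in ExE and 1.44 RPKM in epiblast of the wild type. The part that this extent plays was not tested. At the other 6 loci p ran from 0.0857 (Inpp5f, -1.67) to 0.8 (Plagl1, -0.30).

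Total H3K4me3, read without regard to the allele, was higher in matDKO/CAST than in the wild type at the start sites. It was measured as RPKM (reads per kb of window, scaled to the depth of the library) in the windows within 1 kb of the start, where inputs held at most 0.713 RPKM. In ExE both matDKO/CAST libraries lay above all 4 wild-type libraries at 7 of 7 start sites, against 3.16% of 20811 gene starts, and in epiblast at 6 of 7, against 5.18%. The ratio of the matDKO/CAST mean to the wild-type mean was 1.57 to 2.00 in ExE with a median of 1.77, and 1.41 to 2.18 in epiblast with a median of 1.81. Over all gene starts the median ratio was 0.980 and 0.946.

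At Impact the 4 wild-type ExE libraries held 3.59 to 4.67 RPKM (median 4.17) and the matDKO/CAST libraries 7.48 and 9.11. At Plagl1 the wild-type ExE libraries held 7.16, 7.32, 8.97 and 9.64 RPKM, and both matDKO/CAST libraries held 15.5. Peg13 held 8.66 to 12.8 RPKM (median 10.0) against 16.7 and 19.4. In none of these did the groups overlap.

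The retrogenes followed. Mcts2 held 9.72, 9.94, 12.2 and 12.6 RPKM in wild-type ExE against 16.6 and 18.3, and Zrsr1 13.8 to 16.8 RPKM (median 16.0) against 24.0 and 26.7. Nap1l5, the lowest of the 7, held 1.66 to 3.82 RPKM (median 2.76) against 4.33 and 5.69, and the short Inpp5f start 2.97 to 5.80 RPKM (median 4.76) against 6.38 and 9.85. Only in epiblast, at Mcts2, did the groups overlap, with 8.52, 9.07, 10.6 and 13.4 RPKM in the wild type and 10.9 and 18.5 in matDKO/CAST.

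**Figure D2:**
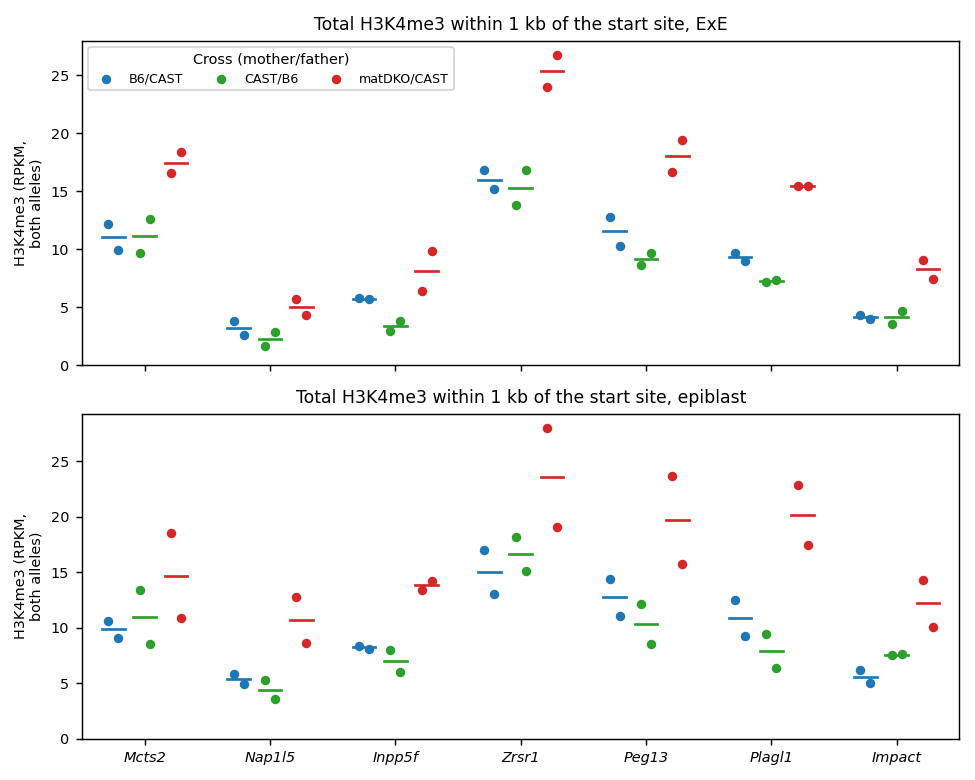
Total H3K4me3 (RPKM, vertical axis, both alleles) within 1 kb of each of the 7 start sites in ExE and in epiblast, with 1 point per library coloured by cross. The matDKO/CAST points lie above all wild-type points at 7 of 7 loci in ExE and at 6 of 7 in epiblast, where Mcts2 overlaps.

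With 2 libraries a group, few of these differences in H3K4me3 passed a test over the genome. In limma on log2(RPKM + 0.5) of whole peak regions, matDKO/CAST minus B6/CAST, only Impact passed, by 1.05 ± 0.23 (SE) in ExE (adjusted p = 0.0289) and 0.98 ± 0.23 in epiblast (adjusted p = 0.0389), where 0.171% and 0.333% of regions passed. The other 6 regions differed by 0.25 to 0.66 in ExE and 0.35 to 0.87 in epiblast. In 2 kb at the start sites, with libraries centred on their median start site (chosen after seeing the data), 5 of 7 passed in ExE, against 0.0817% of gene starts with higher signal. These were Impact (0.98 ± 0.20), Plagl1 (0.78 ± 0.16), Zrsr1 (0.72 ± 0.13), Mcts2 (0.71 ± 0.15) and Peg13 (0.69 ± 0.14). In epiblast 4 of 7 passed in that setting, Impact (1.09 ± 0.20), Plagl1 (0.90 ± 0.16), Zrsr1 (0.66 ± 0.13) and Peg13 (0.63 ± 0.14), also against 0.0817%. Without the centring 0 passed in either tissue.

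The starts of the hosts Commd1 and H13 did not share the higher level. At the start of Commd1 the wild-type ExE libraries held 30.8, 32.3, 36.2 and 37.6 RPKM of H3K4me3 and the matDKO/CAST libraries 28.8 and 33.2, a ratio of means of 0.907 in ExE and 0.888 in epiblast. At the main start of H13 the ratio was 0.855 in ExE and 0.888 in epiblast. The groups overlapped at both. In ExE the matDKO/CAST libraries thus stood above the wild type at the start sites of Zrsr1 and Mcts2 and not at those of their hosts.

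The profile over 20 kb showed where the added signal lay. In ExE the matDKO/CAST mean stood highest above the wild-type mean in a 1 kb window centred within 2 kb of the start site at 7 of 7 loci, and both means fell to low values on either side apart from a second rise downstream of Zrsr1 and Mcts2, inside the host gene or at its start.

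**Figure D3:**
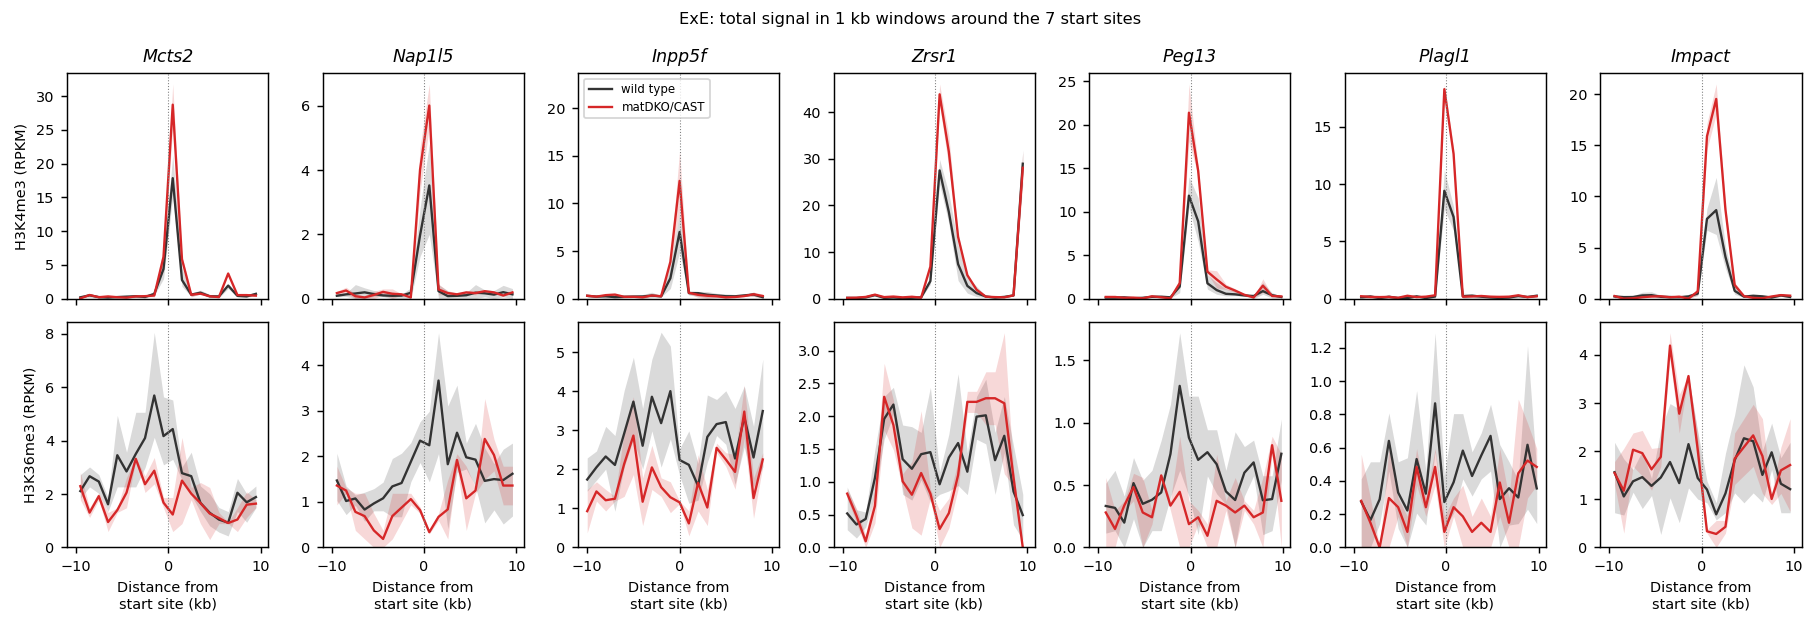
Mean total H3K4me3 (upper row) and H3K36me3 (lower row) in ExE, in RPKM per 1 kb window, against the distance from each of the 7 start sites (kb, in the direction of transcription). Lines are means of the 4 wild-type or the 2 matDKO/CAST libraries and bands run from the lowest to the highest library. The matDKO/CAST line peaks above the wild-type line for H3K4me3 next to the start site, and for H3K36me3 it lies below it in the first window centred downstream of the start site at 7 of 7 loci.

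Between the wild-type tissues, total H3K4me3 over the peak regions was lower in ExE than in epiblast at Inpp5f (log2 difference -0.76 ± 0.15, adjusted p = 0.000147) and Nap1l5 (-0.68 ± 0.17, adjusted p = 0.00112), 2 of 7 regions, where 47.7% of all regions differed and 18.9% were lower in ExE. In 2 kb at the start sites with centred libraries Mcts2 (0.42 ± 0.11) and Zrsr1 (0.30 ± 0.09) were higher in ExE, as were 36.6% of gene starts. The median difference over all gene starts was 0.28 in that setting and -0.03 without the centring, and without it Mcts2 (0.10) and Zrsr1 (-0.01) did not pass.

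H3K27me3 was called as a peak only at Plagl1 among the 7, and there it was paternal too. In ExE 81 and 68 paternal against 13 and 16 maternal reads were counted in B6/CAST, 115 and 75 against 18 and 13 in CAST/B6, and 41 and 43 against 35 and 34 in matDKO/CAST. These reads give paternal shares of 83.6% ± 3.69, 85.8% ± 0.88 and 54.9% ± 1.34 in ExE, and 92.7% ± 1.08, 92.9% ± 2.88 and 56.1% ± 3.88 in epiblast. H3K4me3 and H3K27me3 were thus found on the same, paternal chromosome of Plagl1 in both tissues, which in pooled tissue need not mean the same cells.

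The paternal H3K27me3 of Plagl1 passed in both crosses of both tissues, where 1.35% of informative H3K27me3 peaks passed in ExE and 0.325% in epiblast. The joint log2 ratio was 2.51 in ExE (adjusted p = 2.42e-33) and 3.70 in epiblast (adjusted p = 2.17e-11), where the joint fit called 7.27% and 0.751% of peaks. The bias differed from that of matDKO/CAST by -1.88 in ExE (adjusted p = 0.000623) and -3.18 in epiblast (adjusted p = 0.000501), against 0.742% and 0.179% of peaks. Leaving out B6/CAST replicate 1 in ExE, or matDKO/CAST replicate 1 in epiblast, ended the call of that difference, and so did DESeq2 in ExE. In matDKO/CAST alone the peak was not called (0.56, adjusted p = 0.322, and 0.52, adjusted p = 0.341, against 2.1% and 1.97% of peaks), although its unadjusted p was under 0.05 in both tissues, and DESeq2 called neither.

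Total H3K27me3 at Plagl1 overlapped between the crosses, with 1.65 to 2.45 RPKM (median 2.13) in wild-type ExE against 2.33 and 3.91, and 2.44 to 4.68 (median 3.53) in wild-type epiblast against 3.13 and 3.82. Over the region it was lower in ExE than in epiblast of the wild type (log2 difference -0.51, adjusted p = 0.00131), where 53.9% of regions differed and 8.68% were lower in ExE. The 6 other start sites held at most 1.31 RPKM of H3K27me3 in a library, the highest at Nap1l5 in epiblast, where the median gene start held 0.272 to 0.385.

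H3K36me3 peaks lay over 6 of the start sites in ExE (not Plagl1) and 5 in epiblast (not Plagl1 or Peg13). They ran from 6 kb at Peg13 to 178 kb at Inpp5f in ExE and overlapped the surrounding gene. In ExE the group means were 47.7 to 49.4% paternal at Inpp5f, 47.9 to 48.2% at Zrsr1 and 43.1 to 47.1% at Nap1l5 in the wild type. In epiblast they were 46.9 to 48.2% at Inpp5f and 46.1% in both crosses at Nap1l5, and Zrsr1 held 35.5% ± 10.9 paternal reads in B6/CAST and 42.3% ± 1.55 in CAST/B6.

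The peak over Mcts2 and H13 held more maternal than paternal reads. In ExE 127 and 101 paternal against 213 and 143 maternal reads were counted in B6/CAST, 112 and 83 against 208 and 145 in CAST/B6, and 28 and 32 against 37 and 90 in matDKO/CAST. It was the 1 start-site peak of H3K36me3 called in both crosses in ExE (log2 ratios -0.57 and -0.92, adjusted p = 0.000843 and 7.08e-09), where 0.251% of peaks were called. In epiblast edgeR called 0 of 5 in both crosses, against 0.0632% of peaks, with 2 (Impact and Zrsr1) at an unadjusted p under 0.05 in each cross, and DESeq2 called 0. That call in both crosses was lost without B6/CAST replicate 1, B6/CAST replicate 2 or CAST/B6 replicate 1, and under DESeq2. The paternal share was 39.4% ± 2.86, 35.7% ± 0.99 and 34.7% ± 11.9 in ExE, and 43.2% ± 1.44, 36.5% ± 1.52 and 29.8% ± 0.50 in epiblast. The matDKO/CAST libraries were therefore maternal in their values as well, with a log2 ratio of -0.88 in ExE that did not pass (adjusted p = 0.177). It passed with the library as a block (adjusted p = 0.00477), with a shared spread (0.0235), and without B6/CAST replicate 1 (0.0467), B6/CAST replicate 2 (0.0468) or matDKO/CAST replicate 2 (0.000442), which leaves 1 matDKO/CAST library. A library left alone in its group is assumed to vary like the other groups. In matDKO/CAST edgeR called 0 of 6 start-site peaks in ExE and 0 of 5 in epiblast, against 0.677% and 0.451% of H3K36me3 peaks, with 1 in each at an unadjusted p under 0.05, and DESeq2 called 0 and 0.

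At Impact the H3K36me3 shares of the wild type differed between the 2 directions of the cross. In ExE 151 and 87 paternal against 130 and 109 maternal reads were found in B6/CAST, and 132 and 93 against 62 and 41 in CAST/B6. In CAST/B6 the share was 68.7% ± 0.96, against 49.1% ± 6.61 in B6/CAST and 51.2% ± 5.22 in matDKO/CAST. In epiblast the same 3 values were 77.4% ± 0.97, 58.4% ± 6.72 and 38.9% ± 7.86. There the matDKO/CAST libraries (at most 44.4%) lay below the libraries of both wild-type crosses (at least 53.6%). Impact passed in CAST/B6 (1.06, adjusted p = 2.48e-07, and 1.69, adjusted p = 3.27e-13) and not in B6/CAST (0.06 and 0.63), and it passed in the joint fit of both tissues (0.56, adjusted p = 0.000308, and 1.17, adjusted p = 3.17e-10). In both tissues the B6 allele held a larger share as father than the CAST allele did.

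The joint fit called 4 of 6 H3K36me3 peaks in ExE, against 0.589%, and 2 of 5 in epiblast (Impact and Mcts2), against 0.153%. Besides Impact and Mcts2, the ExE calls were Nap1l5 (-0.29, adjusted p = 0.0145) and Peg13 (-1.78, adjusted p = 0.000883). Peg13 held few H3K36me3 reads, 4 and 3 paternal against 28 and 20 maternal in B6/CAST, and 2 and 12 against 12 and 13 in CAST/B6, and passed only in B6/CAST (-2.66, adjusted p = 1.37e-05). The joint ExE call was lost for Nap1l5 without any 1 of the 4 wild-type libraries, for Peg13 without B6/CAST replicate 1 or 2 or CAST/B6 replicate 1, and for Impact without B6/CAST replicate 1 or CAST/B6 replicate 1 or 2, and Mcts2 kept it in each case. The difference in H3K36me3 bias between B6/CAST and matDKO/CAST was called at 0 of 6 peaks in ExE and 0 of 5 in epiblast by edgeR, against 0.363% and 0.163% of peaks, with 0 and 2 at an unadjusted p under 0.05, and at 0 and 0 by DESeq2.

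**Figure D4:**
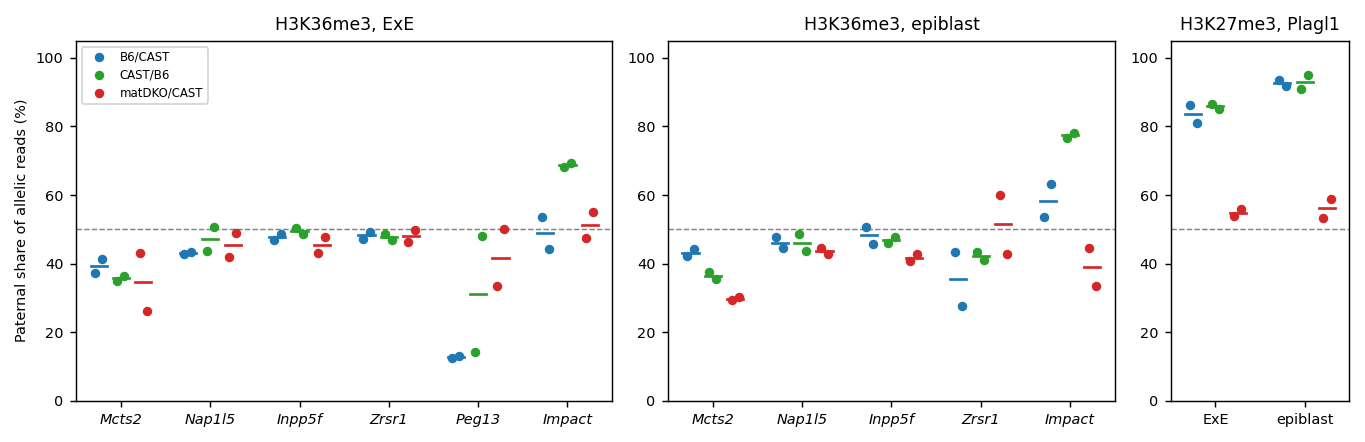
Paternal share (percent) of the allelic reads of H3K36me3 peaks over the start sites in ExE and in epiblast, and of the H3K27me3 peak at Plagl1 in both tissues, with 1 point per library coloured by cross. The dashed line marks equal shares, the H3K36me3 points of Inpp5f and Nap1l5 in epiblast lie between 40.6 and 50.8%, those of Mcts2 lie below the line, and at Plagl1 the wild-type H3K27me3 points lie above the matDKO/CAST points.

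Close to the start sites total H3K36me3 was lower in matDKO/CAST. Within 1 kb of the start both matDKO/CAST libraries lay below all 4 wild-type libraries at 5 of 7 start sites in ExE, against 12.6% of gene starts, and at 4 of 7 in epiblast, against 14.3%. Mcts2 held 3.19 to 5.58 RPKM in wild-type ExE against 1.04 and 1.87, and Inpp5f 2.32 to 3.73 RPKM against 1.04 and 1.40. Nap1l5 held 1.72 to 2.87 RPKM against 0.561 and 0.595, and Zrsr1 0.920 to 1.65 RPKM against 0.446 and 0.655. The fifth, Plagl1, was near the level of the input, and Impact and Peg13 overlapped. In epiblast the 4 were Mcts2, Zrsr1, Peg13 and Plagl1, of which Peg13 and Plagl1 were near the input. Wild-type epiblast held 0.396 to 0.715 RPKM at Peg13 and 0.334 to 0.679 at Plagl1. The wild-type inputs held 0.339 to 0.496 and 0.279 to 0.536, and matDKO/CAST held 0 and 0.0891 RPKM at Peg13 and 0 and 0.178 at Plagl1.

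The ratio of the matDKO/CAST mean to the wild-type mean had a median of 0.391 over the 7 start sites in ExE and 0.204 in epiblast, where all gene starts had medians of 0.736 and 0.812. The epiblast median was the ratio at Plagl1, which lay near the input. Between 5 and 10 kb on either side of the same start sites the ratio had a median of 0.818 in ExE (0.704 to 1.13) and 0.930 in epiblast (0.634 to 1.43). H3K36me3 libraries were shallow, with 2.09 to 12.6 M reads in all windows, and Mcts2 in matDKO/CAST epiblast held 0.239 and 0.535 RPKM against 1.79 to 3.50 in the wild type.

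**Figure D5:**
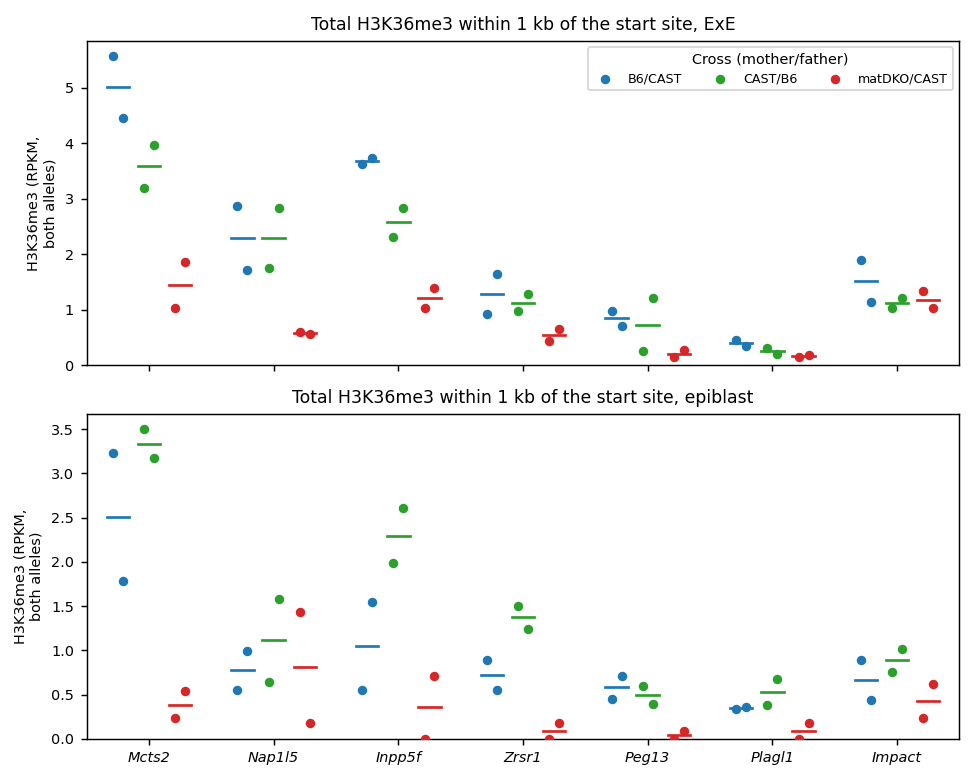
Total H3K36me3 (RPKM, both alleles) within 1 kb of each of the 7 start sites in ExE and in epiblast, with 1 point per library coloured by cross. The matDKO/CAST points lie below all wild-type points at 5 of 7 loci in ExE and at 4 of 7 in epiblast.

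By limma on whole regions 0 of 6 H3K36me3 regions differed between matDKO/CAST and B6/CAST in either tissue, where 0.00413% of regions did in each tissue, with 5 at an unadjusted p under 0.05 in ExE and 2 in epiblast. EdgeR on the whole reads called 5 in ExE, against 2.45% of regions, and 0 in epiblast, against 0.107%. In 2 kb at the start sites with centred libraries Mcts2 passed in epiblast (-1.57 ± 0.33, adjusted p = 0.0341) and not in ExE (-1.58 ± 0.33, adjusted p = 0.067), where 0.00481% and 0.0% of gene starts passed with lower signal. Between the wild-type tissues 5 of 6 H3K36me3 regions were higher in ExE by limma, by log2 differences of 0.40 (Mcts2) to 0.53 (Inpp5f), where 50.9% of regions differed and 22.9% were higher in ExE. Peg13 was the other, with 0.21 (adjusted p = 0.228).

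Windows 1 to 4 kb upstream of the Impact start site, which lie within a longer annotated Impact transcript and within the H3K36me3 peak, and which were chosen after their values were seen, went the other way in ExE. H3K36me3 there held 3.14, 1.82, 0.927 and 1.12 RPKM in wild-type ExE against 3.47 and 3.55 in matDKO/CAST, a ratio of means of 2.00, and the ratio in epiblast was 0.739. B6/CAST replicate 1, with 3.14 RPKM, came closest to matDKO/CAST.

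Other imprinted promoters and the neighbours give the setting for the 7 loci. The start-site peaks of 10 other genes listed for a maternal germline mark were read, and whether each peak covers the marked region was not tested. Of these, 7 were paternal for H3K4me3 in both crosses in ExE and 6 in epiblast. The peak at the start of 1 gene, Grb10, was maternal in both tissues. In each tissue the bias of 7 differed in matDKO/CAST. The 2 paternally marked loci, H19 and Meg3, were maternal in both crosses, were still biased in matDKO/CAST and did not pass the test of a difference in either tissue. Mest in epiblast was the 1 of the 10 genes listed for a maternal mark that edgeR called in matDKO/CAST (log2 ratio 0.69, adjusted p = 0.00312), with paternal shares of 43.5 and 66.8% in its 2 libraries. Of 10 genes around the 7 loci 9 had an H3K4me3 peak, 2 of them (H13 and Commd1) within the peaks described above. None of the other 7 was called in any of these tests, nor were the promoters of 7 genes that keep imprints, among them Zfp57 and Trim28.

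Among 8044 informative ExE H3K4me3 peaks with at least 100 reads in every library, the 3 most like the median pattern of the 7 loci over the 6 ExE libraries were ranked by the distance of their log2 ratios. The nearest was Airn (chr17:12737001-12745500, distance 1.41), with 91.4 to 95.4% paternal reads in the wild type and 49.8 to 52.8% in matDKO/CAST. Next were Mest (chr6:30732001-30741000, distance 3.22), with 95.6 to 97.5% and 56.6 to 59.5%, and a peak 609 bp from Errfi1 (chr4:150869501-150881500, distance 3.23), with 74.8 to 94.6% and 38.7 to 39.2%.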

How the data were processed

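Peaks, reads and groups were taken from the deposited tables, with groups from the labels and all coordinates on GRCm38 (GENCODE vM21 and RefSeq). Per the labels and the methods, the authors trimmed reads (Trim Galore, 0.4.4 in the submitters' processing notes, where the methods name another version for RNA-seq), aligned them (Bowtie2 2.3.2) to a genome masked at strain variants, split them by allele, and called peaks per cross and tissue. The allelic tables hold raw counts per peak and parent, as the authors deposited them. In matDKO/CAST the authors first left out variants shared by 129 and CAST and then added reads assigned to 129 to the maternal side. The effect of this on allelic depth was not tested. A further table deposited by the authors holds RPKM in 1 kb windows of the 19 autosomes for 51 libraries. All low values were whole multiples of 1 read (100.0% within a tolerance of 0.01). The authors' peak lists carry a score that is not used here.

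Counts were tested with edgeR 4.0.16 (glmQLFTest, TMM, two-sided, Benjamini-Hochberg over informative autosomal peaks with a count minimum of 20). A call in both crosses needed an adjusted p below 0.05 in each with the same parent higher. The joint fit had terms for cross, strain and parent. DESeq2 1.42.0 was an alternative. RPKM regions (peaks of both tissues merged) were tested with limma 3.58.1 on log2(RPKM + 0.5) over the 12 libraries of a mark, which understates changes of low regions. Scripts were tested on simulated data. Shares are means of 2 libraries, log2 ratios per library added 0.5, and reads without molecular identifiers are not independent molecules. Whether the 2 libraries of a group came from separate litters is not given in the sources used here, so p-values measure the spread between these libraries. Both parental columns of 1 library were read from 1 pool of tissue, which makes the library a block in allelic tests, with correlations of 0.0139 to 0.576 between the deviations of its columns. The main edgeR fits had no term for the library and so did not use this pairing. Fits with the library as a block were an alternative, and the calls that they changed are given. Replicate numbers shared between crosses (-0.228 to 0.252) or tissues (-0.00825 to 0.345) did not all pass 0.1 and were treated as numbers only.

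Members, gene lists, markers and tests were chosen with earlier results of these data known. At each start site the peak that contains it is described, comparison genes by the peak at their start with the most reads, and the 3 peaks most like the members by distance. Other features were chosen after their values were seen. Alternatives were other normalization, count minimum, pseudocount, control group, block, and each library left out. Chromosome totals, centred libraries, 2 kb windows and whole reads in edgeR were added after seeing the data. Promoters of Mcts2, Nap1l5, Zrsr1 and Plagl1 came from the RefSeq promoter table, and those of Inpp5f and Peg13 from the GRCm38 genome. Scripts ran in R 4.3.3 and Python 3.11.15 with pysam 0.24.0, matplotlib 3.10.9, scipy 1.17.1, pandas 2.3.3 and numpy 2.4.6.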

Additional observations from a re-analysis of the deposited data

Results flagged for a closer look

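The paternal H3K4me3 bias of Mcts2 differed between the tissues of the wild type by the exact permutation test over libraries (p = 0.0286, the smallest this design allows, unadjusted over 7 loci). The log2 ratio of paternal to maternal reads in ExE minus epiblast was -1.53, with the ExE value lower. By the same exact test p was 0.0571 when 1 rather than 0.5 was added to the counts, without any 1 of the 4 ExE libraries, and without CAST/B6 replicate 2 of epiblast. The ExE peak was 25.5 kb long and the epiblast peak 12 kb, both as called in CAST/B6, and the part of this difference in extent was not tested.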

How the results depend on the processing

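Counts of start sites kept their side of the threshold in most settings, with 444 such values within 1.5 times the reported count, 25 above and 40 below. H3K4me3 in ExE: matDKO/CAST bias was called at 1 locus (Mcts2) instead of 0 with the replicate block and with a shared spread. Total H3K4me3 against matDKO/CAST, called at 1 locus in each tissue, was called in ExE at 0 with a pseudocount of 0.1, with the replicate block, with median-centred libraries and with 2 kb at start sites. It was called at 2 with both wild-type crosses as control and at 5 with centred 2 kb. In ExE 78 of 45650 regions were called in the main fit, 230 with both wild-type crosses, and 57 of 20811 gene starts with centred 2 kb. In epiblast the counts of loci were 0 with a pseudocount of 0.1, with centred libraries and with 2 kb, 3 with a mean of at least 1 RPKM, 5 with both wild-type crosses and 4 with centred 2 kb. Over all regions of the epiblast, 152 of 45650 were called in the main fit, 194 of 19489 with a mean of at least 1 RPKM and 1916 of 45650 with both wild-type crosses. With centred 2 kb it was 27 of 20811 gene starts. Between tissues, total H3K4me3 was called at 4 loci instead of 2 with a replicate block in a cross and with centred 2 kb, and at 1 with 2 kb, and Zrsr1 turned from -0.05 to 0.30 in centred 2 kb. Over all regions 21765 of 45650 were called in the main fit and 24865 with that block. Over gene starts 9259 of 20811 were called with centred 2 kb and 1800 with 2 kb. With DESeq2 the H3K27me3 difference in ExE fell from 1 to 0, H3K36me3 in both crosses in ExE from 1 to 0, and the H3K36me3 joint calls from 4 to 1 in ExE and from 2 to 1 in epiblast. H3K36me3 bias in matDKO/CAST ExE was called at 1 locus instead of 0 with the replicate block and with a shared spread. Total H3K36me3 in ExE was called at 4 loci instead of 0 with a mean of at least 1 RPKM, where 721 of 3698 regions were called. It was called at 5 with edgeR (593 of 24238 regions) and at 5 with centred libraries (689 of 24238), where the main fit called 1 of 24238. In epiblast it was called at 1 with centred 2 kb (10 of 20811 gene starts). Between tissues it was called at 0 instead of 5 with both kinds of 2 kb (4 and, centred, 6 of 20811 gene starts, where the main fit called 12346 of 24238 regions). The tissue difference in bias was called at 0 loci instead of 1 with 1 added to counts. The cause of these shifts was not tested.

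Leaving out 1 library at a time, with a library left alone in its group assumed to vary like the other groups, gave 0 to 1 for the H3K27me3 difference in each tissue. For H3K36me3 it gave 1 to 3 joint calls in epiblast, and in ExE 0 to 1 in both crosses, 0 to 1 in matDKO/CAST, 1 to 4 joint and 0 to 2 for total signal. For H3K4me3 in epiblast it gave 3 to 7 in both crosses, 6 to 7 joint and 0 to 3 for total signal, and in ExE 0 to 1 in matDKO/CAST, 5 to 6 differences and 0 to 1 for total signal. Between tissues it gave 2 to 3 for total H3K4me3 and 0 to 2 for the bias. The 3 came without CAST/B6 replicate 2, Impact lost its total signal call without any 1 library of B6/CAST or matDKO/CAST in the tissue, and Peg13 passed for the tissue difference (p = 0.0286, exact permutation test) without CAST/B6 replicate 3 of epiblast.

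The block (the library for allelic reads, the replicate number within a tissue for matDKO/CAST against B6/CAST, and within a cross for ExE against epiblast) changed no other call than those given here and beside the results for Nap1l5, Zrsr1 and Mcts2. In the block by library, H3K4me3 was called in both crosses at 6 loci in ExE and 6 in epiblast. Depth limits H3K4me3 of Nap1l5 in ExE, H3K36me3 of Peg13, and the matDKO/CAST H3K4me3 shares of Inpp5f, which rest on 19 to 41 reads a library.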
